A study of Mus musculus with 7 samples.

Results

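This account covers the 54 mouse miRNAs that the scanner software called detected on some but not all of the arrays, between 1 and 6 of 7. The array carries 696 mouse miRNAs, of which 252 were detected on all 7 arrays and 384 on none. The 54 were chosen by the detection flag itself, so their detection and signal are given as a description, and the fits that cover them serve for the size of differences and not as tests of the members. A further 6 miRNAs detected on some arrays belong to the miR-146b, miR-455, miR-297, miR-466, miR-467 or miR-669 hairpins, which were left out. The cells were soft tissue sarcoma cells of p53-/- C57BL/6 mice. Control primary cells (2 arrays) carried a non-target shRNA, Rb-depleted primary cells (2 arrays) an shRNA against Rb, the gene of the retinoblastoma tumour suppressor, and both were selected with puromycin at 2 µg/ml. Rb-depleted secondary cells (3 arrays) were recovered from spheres that the Rb-depleted cells formed over 10 to 14 days in serum-free methylcellulose, and were returned to flat culture. All groups share the p53-null background, a single Rb shRNA was used, and control secondary cells were not analysed here. Passage through spheres and Rb depletion therefore cannot be told apart in secondary against control cells. Secondary and Rb-depleted primary cells share the shRNA and differ in the passage, and whether the passage acts alike without Rb depletion cannot be seen. The arrays measure no mRNA and so hold no check of Rb itself. The 4 primary arrays and Rb-depleted secondary array 1 lay on one slide and Rb-depleted secondary arrays 2 and 3 on another. The design text speaks of independent experiments at each condition without naming cultures, so the spread between arrays may be partly technical.

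A miRNA hairpin is cut into a duplex with a 5p and a 3p strand, of which one, the guide arm, is usually kept in the Argonaute complex and the other, the star or passenger arm, is usually lost. The guide pairs with its target mRNAs mainly through its seed, bases 2 to 8, so miRNAs with the same seed are grouped as families. Many miRNAs lie in clusters that are transcribed together, or inside a host gene, and both arms of a hairpin come from the same transcript.

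Mature sequences were found in RefSeq (GRCm38.p6) for 45 of the 54, and those below are the miRNAs whose detection separated the groups, with the seed in capitals.
miR-1306-3p: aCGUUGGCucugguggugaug
miR-138-5p: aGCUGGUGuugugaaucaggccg
miR-676-3p: cCGUCCUGagguuguugagcu
miR-3472: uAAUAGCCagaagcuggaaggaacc
miR-542-3p: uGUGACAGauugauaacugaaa
miR-153-3p: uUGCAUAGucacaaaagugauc
miR-181d-5p: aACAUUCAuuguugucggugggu
miR-322-3p: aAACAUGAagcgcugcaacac
miR-450a-2-3p: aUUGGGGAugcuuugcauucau
miR-186-3p: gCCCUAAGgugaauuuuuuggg

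Several of the 54 carry the seed of a miRNA that was detected on all 7 arrays, and these are set out by family, again with the seed in capitals and the fully detected relative last in each family. The first family is that of miR-32, miR-25 and miR-92a, the second that of miR-130 and miR-301, and the third is made of star arms of let-7 hairpins.
miR-32-5p: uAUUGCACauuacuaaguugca
miR-25-3p: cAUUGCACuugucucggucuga
miR-721: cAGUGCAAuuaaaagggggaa
miR-130b-3p: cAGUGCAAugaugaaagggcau
miR-130a-3p: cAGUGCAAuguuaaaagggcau
let-7b-3p: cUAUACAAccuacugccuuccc
let-7f-1-3p: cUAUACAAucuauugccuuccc
let-7a-1-3p: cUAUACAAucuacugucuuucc

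Of the 54, 20 were detected on 1 array, 3 on 2, 8 on 3, 7 on 4, 7 on 5 and 9 on 6. Members detected numbered 30 and 30 on the control arrays, 28 and 30 on the Rb-depleted primary arrays and 3, 21 and 25 on the Rb-depleted secondary arrays. Rb-depleted secondary array 1 thus stood apart from every other array, its own replicates included. The median signal of a member where it was detected ran from 3.70 to 42.951 intensity units, with a median of 9.28 over the 54, while the 252 fully detected miRNAs had a median of 121 (median over arrays for each). A signal depends on probe as well as RNA, so a lower signal in one miRNA than in another is not a lower amount. In 15 of the 54 the pattern followed the groups, with detection on every array of one group and on no array of another. Among all 312 miRNAs detected on any array the same was true of 5.45%. The 252 fully detected miRNAs cannot show such a pattern, so the selection keeps this share low and it is no background rate.

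**Figure D1:**
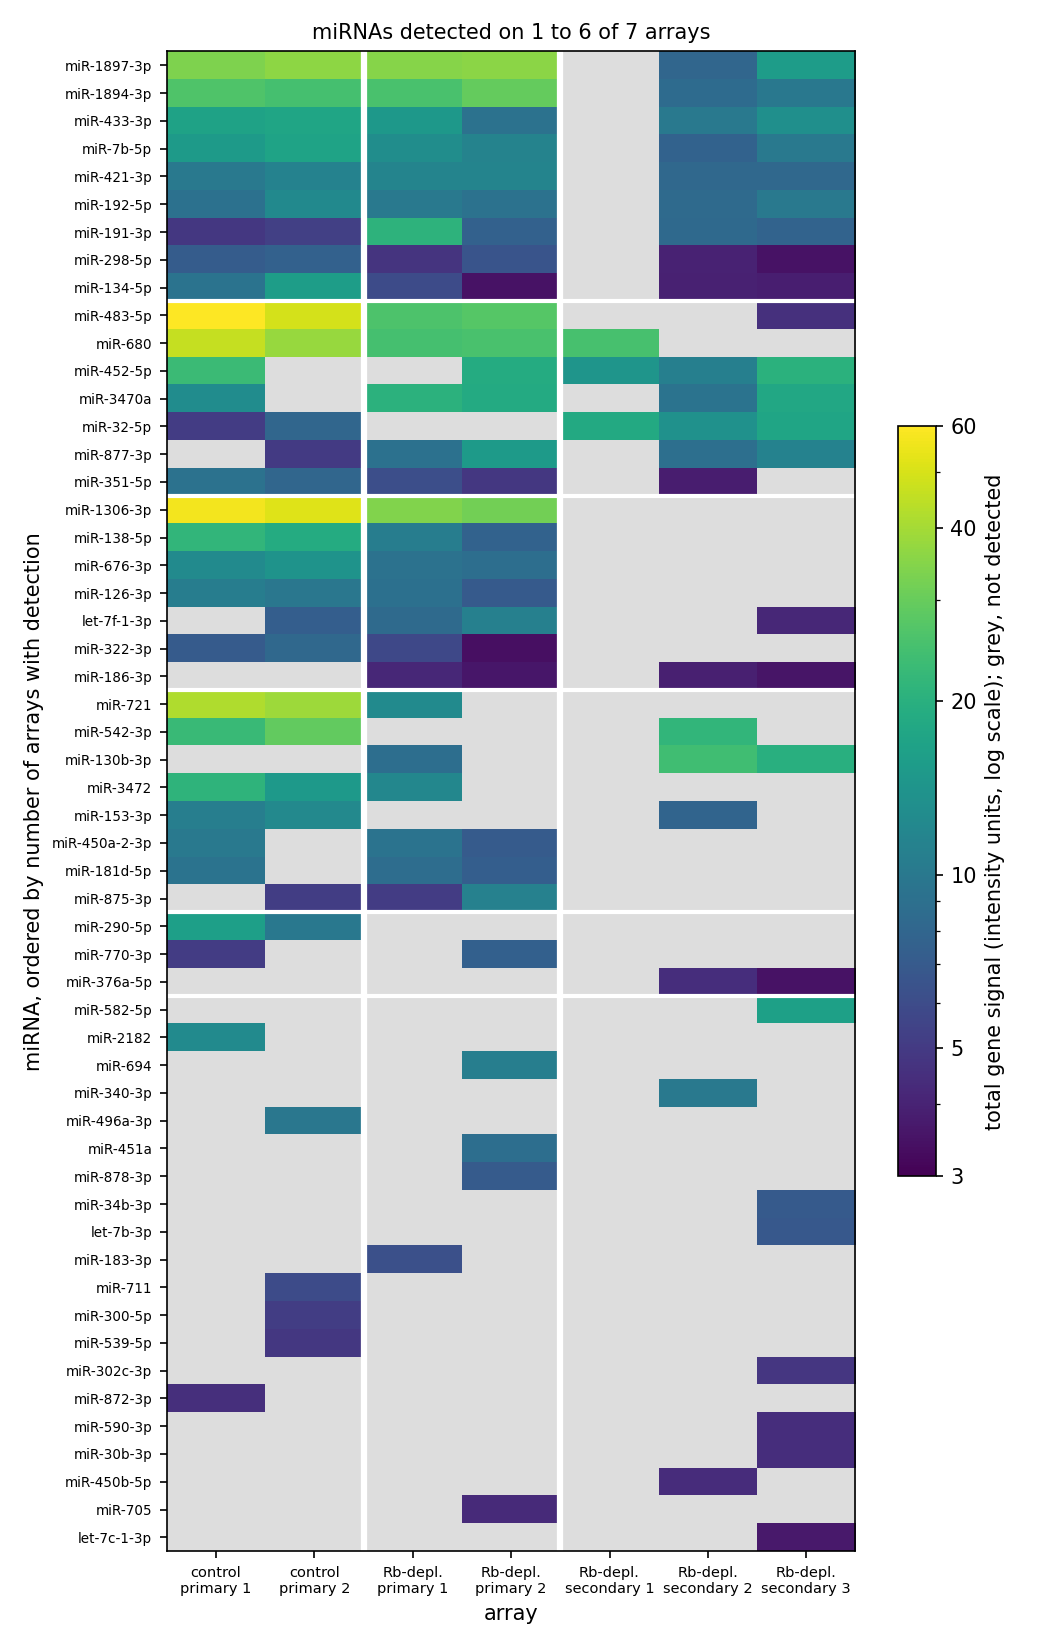
Total gene signal of the 54 miRNAs (rows, ordered by the number of arrays with detection and then by signal) on the 7 arrays (columns), on a log colour scale in intensity units, with grey for no detection. The column of Rb-depleted secondary array 1 is grey but for 3 miRNAs, and 5 rows are coloured on the 4 primary arrays alone.

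The signals behind these calls lay close to the limit of the arrays. The scanner software sums the spots of each probe of a miRNA, and the files show that a miRNA was flagged as detected when at least 1 probe exceeded 3 times its own error, which held for all 4872 calls. The total gene signal was the sum of the probes past that limit alone, within 0.1% in all 1958 detected values, and a miRNA with no such probe was written as 0.1. Of the 167 detected values of the 54, 108 (64.7%) rested on 1 probe, against 13.0% for the 252 fully detected miRNAs. Detection on a single array rested on 1 probe for 16 of the 20 miRNAs concerned. Just inside the limit lay miR-539-5p on control array 2, whose best probe was at 3.02 times its error, miR-376a-5p at 3.03 and let-7b-3p at 3.04 on Rb-depleted secondary array 3. Just outside it lay miR-1894-3p on Rb-depleted secondary array 1 (2.996 times the error), miR-130b-3p on Rb-depleted primary array 2 (2.99) and miR-542-3p on the same array (2.98).

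The limit itself differed between arrays and between miRNAs. The additive error, the part of the error that does not grow with signal, stood at 4.28 and 4.61 on the control arrays, 3.76 and 3.13 on the Rb-depleted primary arrays and 4.98, 3.55 and 3.22 on the Rb-depleted secondary arrays. Array 1 of the secondary cells, with the fewest members detected, had the highest value, and Rb-depleted primary array 2 the lowest. A probe printed in 5 spots, as in miRNAs with 4 probes, needed a signal between 3.11 and 4.97 to pass, and a probe printed in 10 spots, as in miRNAs with 2 probes, between 6.21 and 9.94. The layout with 4 probes was used for 55.6% of the 54, for 13.5% of the fully detected miRNAs and for 51.0% of those detected on no array. Of the 211 combinations of member and array without detection, 120 had a best probe between 2 and 3 times its error and 30 had one under 1 error. In 32 of the 211 the member's median signal where detected was below the lowest signal detected for any miRNA on the array in question, 13 of them on Rb-depleted secondary array 1. With 3 times the smallest probe error of the same layout as the limit, a choice made after the data were seen, the number was 37.

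Because undetected probes keep a value in the files, the sum over all probes of a miRNA, detected or not, gives a continuous measure. It is not normalized between arrays. The total gene signal summed over the 252 fully detected miRNAs was 550498 and 538586 on the control arrays. On the Rb-depleted primary arrays it was 501515 and 432616, and on the Rb-depleted secondary arrays 471685, 445207 and 444678. Over the miRNAs detected on no array, the 95th percentile of the sum over all probes was taken on each array. It ran from 2.90 to 5.07 for 4 probes and from 4.67 to 7.51 for 2 probes, and is called the background level below. The miRNAs that set this level were themselves chosen by the detection flag, which keeps it low. A sum above it is therefore no test that a miRNA was present. Of the 211 values without detection 126 were above that level, as were 158 of the 167 with detection. For 28 of the 54 miRNAs the sum was above it on all 7 arrays, including 7 of the 20 detected on 1 array. These miRNAs were thus above that level also on arrays where they were not flagged. The opposite was seen for 6 miRNAs, which were above it on fewer arrays than they were detected on. Among them miR-590-3p and miR-711 were above it on no array.

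When the additive error of every array was set to the median of the 7, again a choice made after the data were seen, the detected members numbered 37 and 44 on the control arrays, 28 and 21 on the Rb-depleted primary arrays and 19, 19 and 18 on the Rb-depleted secondary arrays. The 3 secondary arrays then gave nearly equal numbers. Of the 15 miRNAs whose detection followed the groups, 6 kept their pattern exactly (miR-1306-3p, miR-676-3p, miR-32-5p, miR-3472, miR-153-3p and miR-542-3p), 6 followed the groups in another way and 3 (miR-721, miR-875-3p and miR-186-3p) no longer did. A further 8 of the 54 then followed the groups.

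**Figure D2:**
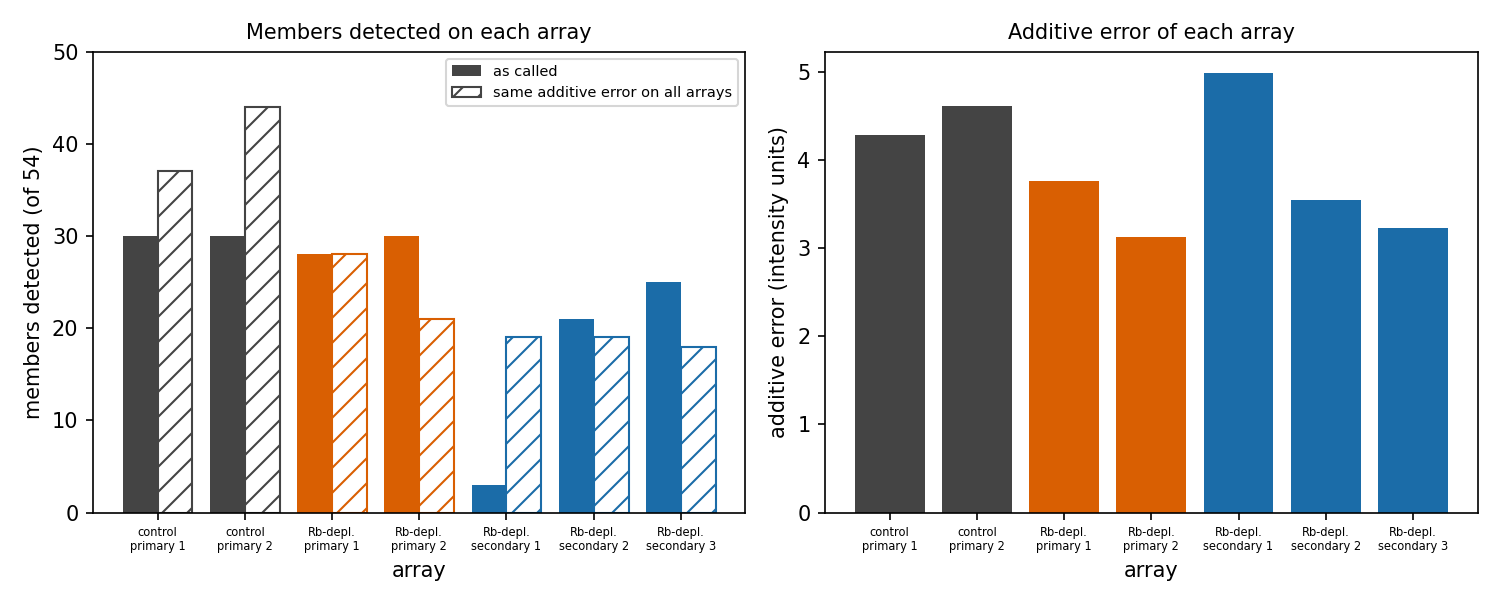
Left, number of the 54 miRNAs detected on each array as called (solid bars) and with the additive error of all arrays set to their median (hatched bars); right, additive error of each array in intensity units. As called, Rb-depleted secondary array 1 has 3 members detected and the highest error, 4.98, and with equal errors it has 19.

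The 9 miRNAs detected on 6 arrays were all missed on that same array, Rb-depleted secondary array 1, where each had its best probe between 2 and 3 times the error. They were miR-1897-3p, miR-1894-3p, miR-433-3p, miR-7b-5p, miR-421-3p, miR-192-5p, miR-191-3p, miR-298-5p and miR-134-5p. With the median additive error 4 of them (miR-192-5p, miR-433-3p, miR-1894-3p and miR-1897-3p) were detected on all 7 arrays. The total gene signal of miR-1897-3p, whose hairpin lies in an exon of the long noncoding RNA gene Sox2ot, came to 33.7 and 35.9 on the control arrays, 34.8 and 35.6 on the Rb-depleted primary arrays, 8.09 on Rb-depleted secondary array 2 and 15.6 on Rb-depleted secondary array 3. In sentences of this kind an array that is not named had no detection. Its sums over all probes were the same on the primary arrays, where both probes passed, and 17.6, 15.2 and 15.6 on the secondary arrays, with no overlap between primary and secondary cells. MiR-1894-3p had sums of 26.2 and 24.8 on the control arrays, 25.3 and 29.5 on the Rb-depleted primary arrays and 16.4, 13.6 and 15.2 on the Rb-depleted secondary arrays, again without overlap between primary and secondary arrays. MiR-192-5p, known from liver and gut and as a p53-responsive miRNA, had sums between 12.1 and 18.7, with the 3 groups overlapping. MiR-191-3p had sums between 12.7 and 24.2, with Rb-depleted primary array 1 highest, while all probes of its 5p arm stayed at or below 0.186 times their error on every array.

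The 5 miRNAs detected on all 4 primary arrays and on no secondary array were miR-322-3p, miR-126-3p, miR-1306-3p, miR-676-3p and miR-138-5p, 1.6% of the 312 miRNAs detected on any array. Fully detected miRNAs cannot add to that share, so it is no background rate either. MiR-1306 is encoded within Dgcr8 (NCBIM37 chr16:18284332-18284410, minus strand), the gene of the RNA-binding subunit of the Microprocessor that cuts miRNA hairpins. Its 3p arm had the highest median signal of the 54, with totals of 57.2 and 51.8 on the control arrays plus 34.1 and 31.7 on the Rb-depleted primary arrays, with no detection on the Rb-depleted secondary arrays. Its sums over all probes were 57.2 and 51.8 on the control arrays, 34.1 and 31.7 on the Rb-depleted primary arrays and 14.5, 9.49 and 10.7 on the Rb-depleted secondary arrays. The 3 groups did not overlap on this measure and the order was control, Rb-depleted primary, Rb-depleted secondary. The sums on the secondary arrays were nonetheless above the background level, although no probe passed the limit there. Sums that were lower without overlap were common among the 312 miRNAs, at 57.4% for Rb-depleted primary against control arrays, 66.7% for secondary against control and 37.2% for secondary against Rb-depleted primary, whereas sums that were higher without overlap made up 4.49%, 5.13% and 12.8%. For this reason nothing is read from a lack of overlap here.

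MiR-138-5p, a miRNA best known from neurons, is made from 2 hairpins (NCBIM37 chr9:122591994-122592092, plus strand, and a second on chromosome 8). Its totals were 21.6 and 19.02 on the control arrays plus 10.7 and 7.67 on the Rb-depleted primary arrays, with no detection on the Rb-depleted secondary arrays. Its sums over all probes were 29.7 and 28.2 on the control arrays, 13.2 and 9.67 on the Rb-depleted primary arrays and 8.198, 3.78 and 4.32 on the Rb-depleted secondary arrays. Here too the 3 groups did not overlap and followed the same order as for miR-1306-3p, from which again nothing is read. MiR-676-3p comes from an intron of Eda on the X chromosome (NCBIM37 chrX:97576436-97576524, plus strand), the gene of ectodysplasin A. Its totals were 12.6 and 14.01 on the control arrays plus 9.25 and 8.82 on the Rb-depleted primary arrays, with no detection on the Rb-depleted secondary arrays, and its sums were 15.9 and 19.7 on the control arrays, 12.6 and 10.2 on the Rb-depleted primary arrays and 4.16, 8.13 and 3.804 on the Rb-depleted secondary arrays. The groups again did not overlap.

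MiR-126-3p, from the endothelial gene Egfl7 (NCBIM37 chr2:26446877-26446949, plus strand), had totals of 10.7 and 9.84 on the control arrays plus 9.102 and 7.02 on the Rb-depleted primary arrays, with no detection on the Rb-depleted secondary arrays. Its sums were 17.7 and 17.7 on the control arrays, 16.02 and 11.8 on the Rb-depleted primary arrays and 13.2, 8.64 and 9.21 on the Rb-depleted secondary arrays. Unlike the 3 miRNAs above, the sums of Rb-depleted primary and secondary arrays overlapped, and all 7 were above the background level. MiR-322-3p, the star arm of an X-linked hairpin, had totals of 7.11 and 8.24 on the control arrays plus 5.74 and 3.38 on the Rb-depleted primary arrays, with no detection on the Rb-depleted secondary arrays. Over all its probes the sums were 3.68 and 5.16 on the control arrays, 2.75 and -1.096 on the Rb-depleted primary arrays and -4.24, -1.03 and -3.705 on the Rb-depleted secondary arrays, so only 1 of the 7 arrays was above the background level.

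Detection on both control arrays and on no Rb-depleted secondary array was also found for miR-721, miR-3472 and miR-290-5p. MiR-721 shares its seed with miR-130 and had totals of 41.8 and 38.9 on the control arrays plus 12.5 on Rb-depleted primary array 1, with no detection on the Rb-depleted secondary arrays. Its sums were 41.8 and 38.9 on the control arrays, 15.4 and 9.91 on the Rb-depleted primary arrays and 13.3, 8.23 and 6.37 on the Rb-depleted secondary arrays. Both control arrays stood far above the other 5, which overlapped with each other across groups. MiR-3472 had totals of 21.1 and 15.1 on the control arrays plus 11.98 on Rb-depleted primary array 1, with no detection on the Rb-depleted secondary arrays, and sums of 28.7 and 19.9 on the control arrays, 16.9 and 5.79 on the Rb-depleted primary arrays and -1.08, -0.00624 and -0.696 on the Rb-depleted secondary arrays. All primary sums were above all secondary sums, which lay just below 0. MiR-290-5p belongs to the first miRNA cluster of embryonic stem cells and was detected on the control arrays alone, at 16.2 and 10.01. Its sums of 19.3 and 15.4 on the control arrays, 10.5 and 5.84 on the Rb-depleted primary arrays and 12.1, 8.896 and 6.72 on the Rb-depleted secondary arrays were lower on all 5 Rb-depleted arrays than on either control array, but stayed above the background level on all of them.

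Both control arrays but neither Rb-depleted primary array detected miR-542-3p, miR-153-3p and miR-32-5p, besides miR-290-5p. MiR-542-3p had totals of 22.9 and 29.2 on the control arrays plus 21.5 on Rb-depleted secondary array 2, with no detection on the Rb-depleted primary arrays, and sums of 22.9 and 29.2 on the control arrays, 12.7 and 11.3 on the Rb-depleted primary arrays and 10.2, 21.5 and 2.58 on the Rb-depleted secondary arrays. The secondary arrays ran from below both Rb-depleted primary arrays to near the control arrays. MiR-153-3p, known from neurons and encoded in an intron of Ptprn2, had totals of 10.8 and 12.3 on the control arrays plus 7.91 on Rb-depleted secondary array 2, with no detection on the Rb-depleted primary arrays. Its sums of 10.1 and 12.2 on the control arrays, 2.55 and -1.76 on the Rb-depleted primary arrays and 1.53, 7.04 and -5.13 on the Rb-depleted secondary arrays showed a similar spread between secondary arrays, with array 2 highest and array 3 lowest.

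MiR-32-5p, of the seed family of miR-25 and miR-92a, was the only one of the 54 detected on every control and every secondary array and on no Rb-depleted primary array. Its totals were 5.12 and 8.02 on the control arrays plus 18.4, 13.6 and 17.4 on the Rb-depleted secondary arrays, with no detection on the Rb-depleted primary arrays. Its sums over all probes were 8.85 and 14.5 on the control arrays, 6.24 and 2.595 on the Rb-depleted primary arrays and 21.1, 14.1 and 19.3 on the Rb-depleted secondary arrays. On this measure Rb-depleted primary arrays were below control arrays and secondary arrays above Rb-depleted primary arrays, whereas control array 2 reached into the secondary range. The hairpin lies on chromosome 4 (NCBIM37 chr4:56908101-56908170, minus strand) in an intron of D730040F13Rik. Its seed relatives miR-25-3p and miR-92a-3p, detected on all arrays with lowest signals of 648 and 1328, are measures the selection did not use. In the deposited log2 values, secondary arrays differed from Rb-depleted primary arrays in miR-25-3p by -0.18 (standard error 0.07, adjusted p = 0.116 by limma) and miR-92a-3p by 0.02 (standard error 0.10, adjusted p = 0.908 by limma). Neither passed 0.05.

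The other 4 miRNAs that followed the groups had low signals. MiR-450a-2-3p, detected on both Rb-depleted primary arrays and control array 1, had totals of 10.1 on control array 1 plus 9.38 and 7.07 on the Rb-depleted primary arrays, with no detection on the Rb-depleted secondary arrays, and sums of 7.099 and 5.89 on the control arrays, 7.65 and 5.01 on the Rb-depleted primary arrays and 0.375, 1.54 and -0.727 on the Rb-depleted secondary arrays. MiR-181d-5p, a minor member of the miR-181 family, had totals of 9.42 on control array 1 plus 8.702 and 7.37 on the Rb-depleted primary arrays, with no detection on the Rb-depleted secondary arrays, and sums of 11.2 and 12.5 on the control arrays, 9.91 and 9.24 on the Rb-depleted primary arrays and 7.904, 3.01 and 8.16 on the Rb-depleted secondary arrays. On both, the secondary arrays were the 3 lowest. MiR-186-3p had totals of 4.18 and 3.59 on the Rb-depleted primary arrays, 3.93 on Rb-depleted secondary array 2 and 3.57 on Rb-depleted secondary array 3, with no detection on the control arrays. It had sums of 6.68 and 9.23 on the control arrays, 7.03 and 6.297 on the Rb-depleted primary arrays and 6.45, 5.26 and 6.23 on the Rb-depleted secondary arrays. Its control sums lay within or above the range of the arrays on which it was detected, although it was detected on neither control array. The limit of this layout was higher on both control arrays than on the 4 arrays with detection. MiR-875-3p had totals of 5.19 on control array 2 plus 5.08 and 11.2 on the Rb-depleted primary arrays, with no detection on the Rb-depleted secondary arrays. Each of these totals came from 1 of its 4 probes, and the sums were -6.86 and 0.635 on the control arrays, 1.101 and 5.82 on the Rb-depleted primary arrays and 0.797, -6.79 and -0.859 on the Rb-depleted secondary arrays.

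**Figure D3:**
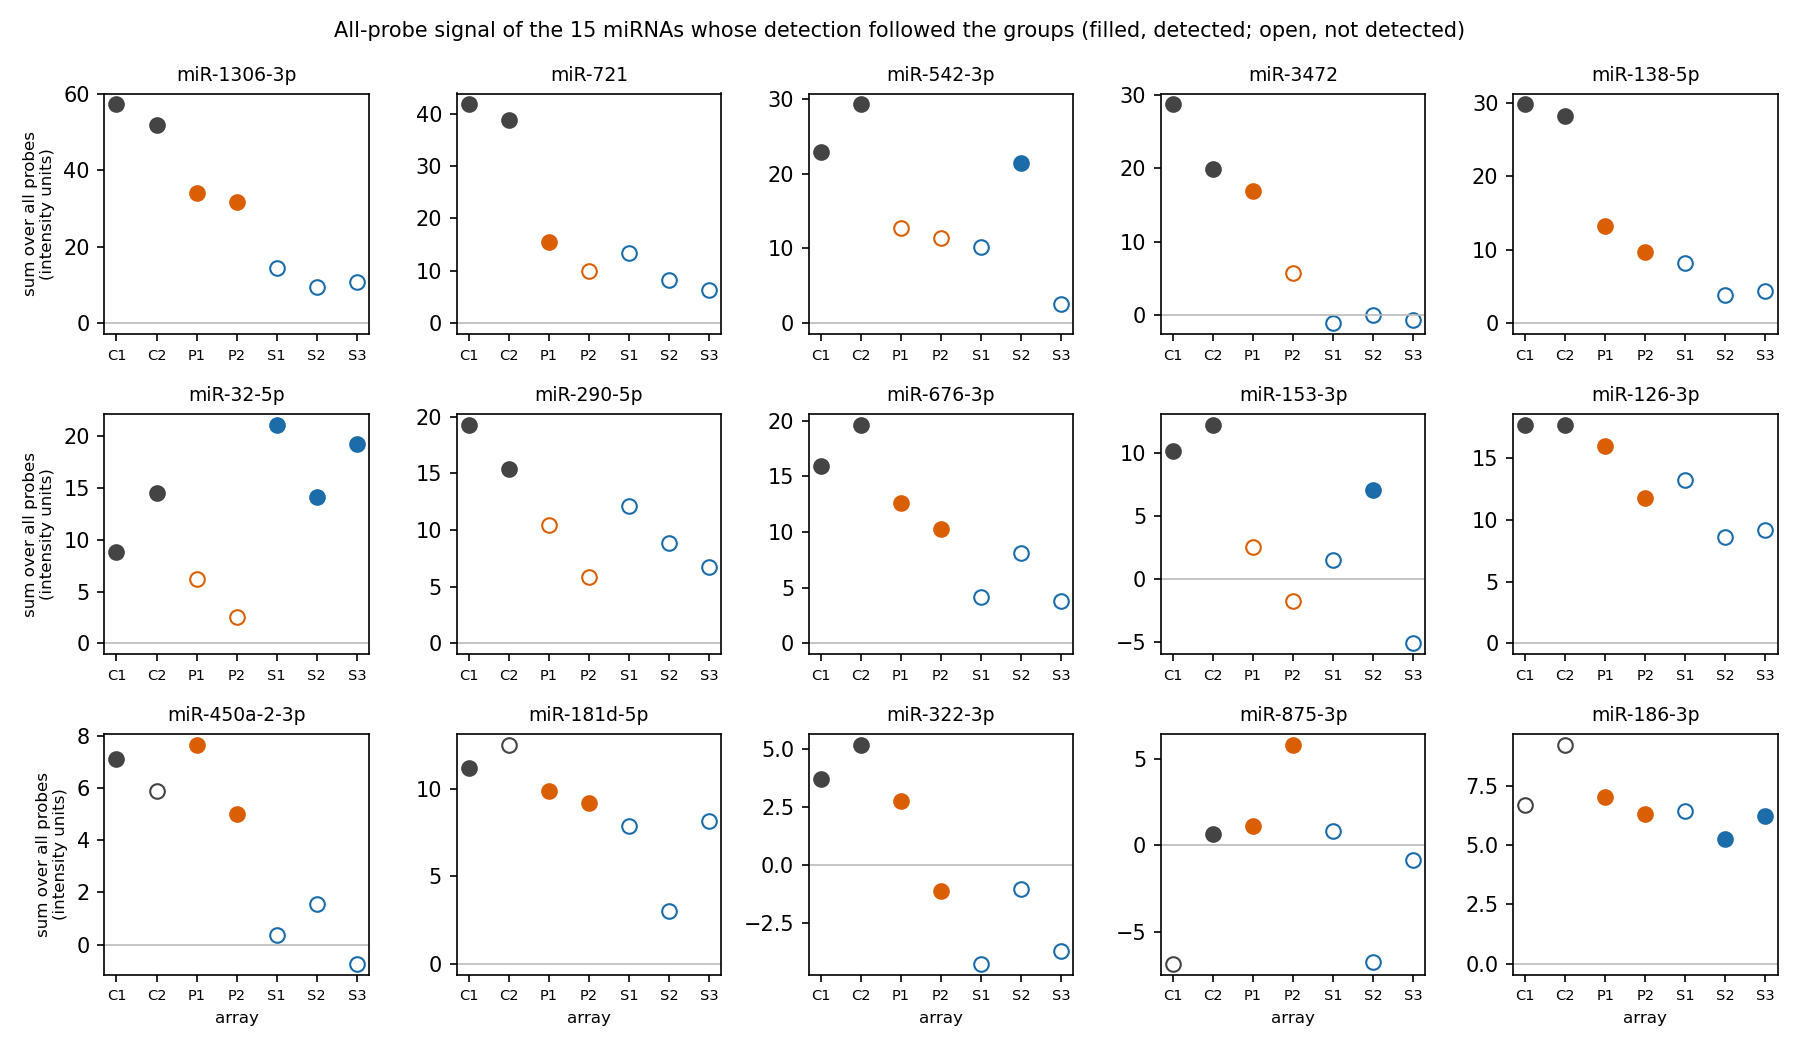
Sum over all probes, in intensity units, on the 2 control (C1, C2), 2 Rb-depleted primary (P1, P2) and 3 Rb-depleted secondary arrays (S1 to S3) for the 15 miRNAs whose detection followed the groups, ordered by signal; filled points were detected, open points were not. MiR-1306-3p lies at 57.2 on C1 and 9.49 on S2, whereas miR-186-3p stays between 5.26 and 9.23 on both sides of the detection call.

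Among miRNAs without a group pattern, miR-483-5p gave the highest single total of the 54, on control array 1. It is encoded in an intron of Igf2 (NCBIM37 chr7:149840829-149840901, minus strand), the imprinted gene of insulin-like growth factor 2. Its totals were 59.9 and 49.4 on the control arrays, 25.9 and 27.3 on the Rb-depleted primary arrays and 4.55 on Rb-depleted secondary array 3, and its sums were 59.9 and 49.4 on the control arrays, 29.2 and 27.3 on the Rb-depleted primary arrays and 13.2, 8.05 and 10.5 on the Rb-depleted secondary arrays. The 3 groups did not overlap on the sums and fell in the order control, Rb-depleted primary, Rb-depleted secondary. MiR-680 had totals of 46.4 and 37.97 on the control arrays, 24.7 and 25.3 on the Rb-depleted primary arrays and 25 on Rb-depleted secondary array 1, so that Rb-depleted secondary array 1, which missed nearly all other members, detected it and the other secondary arrays did not. MiR-452-5p (totals of 10.9 to 23.0 on 5 arrays) was the third member detected on that array. MiR-3470a was missed on control array 2 and Rb-depleted secondary array 1, and miR-877-3p on control array 1 and Rb-depleted secondary array 1. MiR-351-5p, whose seed is that of miR-125, was missed on Rb-depleted secondary arrays 1 and 3. MiR-130b-3p, whose seed miR-721 shares, went the other way from miR-721, with totals of 8.897 on Rb-depleted primary array 1, 23.9 on Rb-depleted secondary array 2 and 19.7 on Rb-depleted secondary array 3, with no detection on the control arrays and sums of 8.599 and 13.1 on the control arrays, 12.1 and 9.04 on the Rb-depleted primary arrays and 15.1, 23.9 and 19.7 on the Rb-depleted secondary arrays. Its secondary sums were all above its primary ones. Let-7f-1-3p was missed on control array 1 and Rb-depleted secondary arrays 1 and 2.

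Fits across all 312 miRNAs put these differences on a log2 scale. On total gene signal with undetected values raised to 1 and quantile normalization, the fit by limma put 4 of the 54 under an adjusted p of 0.05 on comparing Rb-depleted primary with control arrays, as it did 2.56% of all miRNAs fitted, 9 for Rb-depleted secondary against control arrays (17.6% of all) and 6 for secondary against Rb-depleted primary arrays (13.1% of all). The detection flag that chose the members also sets these values, since undetected arrays are put at the floor, so the counts are no test of the members and nothing is read from them. Single arrays moved the first count, which was 0 without Rb-depleted secondary array 3, 1 without Rb-depleted secondary array 1, 2 without Rb-depleted primary array 2, 10 without control array 1 and 12 without Rb-depleted primary array 1. The third count was 10 without Rb-depleted primary array 1.

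The sizes on that scale depend on the value given to undetected arrays. With the sum over all probes, scaled to the 75th percentile of the fully detected miRNAs, the counts among the 54 were 0, 13 and 12 in the same order, against 0.321%, 13.5% and 12.2% of all miRNAs. In the first comparison 15 of the 54 had an unadjusted limma p under 0.05. That number was not taken over all miRNAs, so nothing is read from it. Relative to control cells, miR-1306-3p in Rb-depleted secondary cells had a log2 difference of -1.80 (standard error 0.25) on the scaled sums, against -5.48 with the floor. The log2 difference was -2.05 (standard error 0.36) for miR-138-5p, -1.94 (standard error 0.28) for miR-483-5p, -1.73 (standard error 0.32) for miR-721 and -1.36 (standard error 0.26) for miR-676-3p. For miR-126-3p it was -0.35 (standard error 0.24) against -2.73 with the floor, and for miR-290-5p -0.49 (standard error 0.30) against -3.17. MiR-32-5p differed between Rb-depleted secondary and primary cells by 2.37 (standard error 0.38) against 4.30 with the floor. Without scaling between arrays, the median log2 difference of all 312 was -0.26, -0.47 and -0.18 in the 3 comparisons.

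Both arms of the hairpin were on the array for 32 of the 54 miRNAs, and these fell into separate kinds. For 14 the other arm was detected on all 7 arrays, with a higher signal, and these are called weaker arms here. The deposited names make 10 of them star arms. For 18 the other arm was detected on no array, and these are called stronger arms. The names refer to signal on this array alone, since probes and their layout differ between arms and signals of different probes do not rank amounts. For the other 22 the opposite arm is not on the array. The median signal where detected was 6.34 for the weaker arms, 10.2 for the stronger arms and 10.7 for the rest. Detection on a single array was the case for 8 of the 14 weaker arms, 5 of the 18 stronger arms and 7 of the 22 others. Weaker arms had 4 probes, the layout with the lower limit, in 11 of 14, stronger arms in 9 of 18 and the others in 10 of 22. Weaker arms were detected 4 times on each control array, 6 and 5 times on the Rb-depleted primary arrays and 0, 4 and 8 times on the Rb-depleted secondary arrays. Stronger arms were detected 10 and 11 times, 10 and 11 times, and 0, 7 and 9 times.

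**Figure D4:**
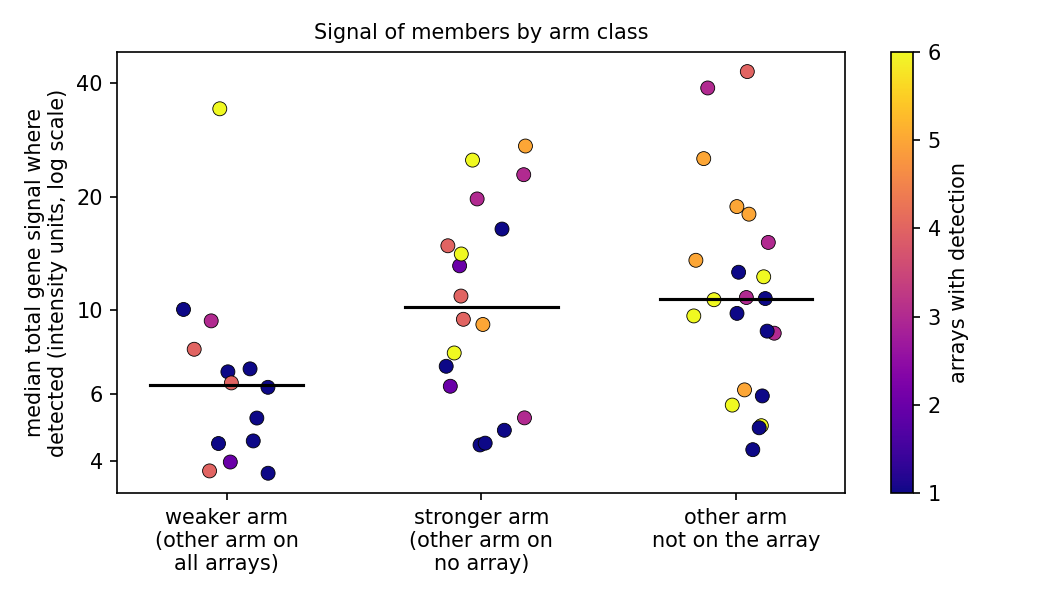
Median total gene signal where detected (log axis, intensity units) of the 54 miRNAs by arm class, with the colour giving the number of arrays with detection and the bar the median of each class. The bars are at 6.34 for 14 weaker arms, 10.2 for 18 stronger arms and 10.7 for 22 miRNAs without the other arm on the array.

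Signals of a weaker arm and its partner were also set side by side on each array. Over the 31 detected values of the 14 weaker arms, the signal was a median of 5.45% of that of the partner on the same array, from 0.0606% to 57.7%. This ratio is between different probes and counts only the member's probes past the limit, so it is not the share of the arm in the hairpin. For let-7c-1-3p, let-7f-1-3p and miR-450a-2-3p the partner signal can also come from another hairpin. At the low end were the star arms of let-7, a family of differentiation-linked miRNAs whose guide arms were among the strongest signals. Let-7f-5p had signals of 6675 to 8794 and let-7f-1-3p of 4.18 to 11.02 on its 4 arrays. Let-7b-3p, detected on 1 array at 6.88, had sums of 11.4 and 14.3 on the control arrays, 12.5 and 11.2 on the Rb-depleted primary arrays and 12.5, 11.5 and 11.5 on the Rb-depleted secondary arrays, which differ little between groups and lay above the background level on all 7 arrays. Let-7c-1-3p had the lowest median signal of the 54, 3.70 on Rb-depleted secondary array 3, and sums of 3.37 to 8.63. At the high end, miR-1897-3p reached 57.7% of miR-1897-5p on Rb-depleted primary array 1 and 16.2% on Rb-depleted secondary array 2.

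The partner arms have their own probes and were detected on every array, and the choice of members did not use their values. Both arms of a hairpin come from one transcript, so the values are not unrelated to the members' detection, and they are given for the partners themselves. The partners of let-7c-1-3p, let-7f-1-3p and miR-450a-2-3p carry no locus number and can also come from another hairpin. In the deposited log2 values, limma called 0 of the 14 for Rb-depleted primary against control arrays (1.59% of all 252 were called). In that comparison 3 of the 14 had an unadjusted limma p under 0.05. This number was not taken over all 252, so nothing is read from it. Limma called 1 for secondary against control arrays (22.6% of all) and 3 for secondary against Rb-depleted primary arrays (20.2% of all). The median log2 difference of the 14 was -0.02, 0.01 and 0.03 in these comparisons, and that of the 252 miRNAs 0.01, 0.03 and 0.02. MiR-34b-5p, from a hairpin that p53 is known to activate, had log2 values of 7.15 and 7.39 on the control arrays, 7.51 and 7.64 on the Rb-depleted primary arrays and 8.28, 8.03 and 8.55 on the Rb-depleted secondary arrays. It exceeded control cells in the secondary group by 1.02 (standard error 0.17, adjusted p = 0.0175 by limma) and Rb-depleted primary cells by 0.71 (standard error 0.17, adjusted p = 0.0413 by limma). Its weaker arm miR-34b-3p was detected once, at 7.0 on Rb-depleted secondary array 3, and had sums of 4.98 and 6.52 on the control arrays, 7.69 and 5.44 on the Rb-depleted primary arrays and 8.81, 6.35 and 9.796 on the Rb-depleted secondary arrays.

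MiR-376a-3p, of the Dlk1-Dio3 cluster, had log2 values of 7.56 and 7.56 on the control arrays, 7.06 and 6.67 on the Rb-depleted primary arrays and 7.66, 7.46 and 7.52 on the Rb-depleted secondary arrays. It rose in secondary relative to Rb-depleted primary cells by 0.68 (standard error 0.14, adjusted p = 0.0285 by limma). Its star arm miR-376a-5p had totals of 4.44 on Rb-depleted secondary array 2 plus 3.48 on Rb-depleted secondary array 3, with no detection on the control or Rb-depleted primary arrays, and sums of 5.39 and 7.32 on the control arrays, 4.16 and 3.295 on the Rb-depleted primary arrays and 5.36, 5.94 and 4.41 on the Rb-depleted secondary arrays. The star arm was detected only on the secondary arrays 2 and 3, although its sum was highest on control array 2. MiR-340-5p, from an intron of Rnf130, rose in the same comparison by 0.66 (standard error 0.17, adjusted p = 0.0465 by limma). Its weaker arm miR-340-3p was detected on Rb-depleted secondary array 2 at 10.1, with sums of 11.8 and 12.7 on the control arrays, 9.403 and 6.99 on the Rb-depleted primary arrays and 11.4, 12.2 and 9.82 on the Rb-depleted secondary arrays. With the slide as a term in the fit, or with replicate numbers as blocks, none of the 14 partner arms passed in any comparison. Leaving out control array 1 or 2, Rb-depleted primary array 2 or Rb-depleted secondary array 1 or 3 also gave 0 between secondary and Rb-depleted primary cells, and leaving out Rb-depleted primary array 1 gave 1. Between secondary and control cells the number was 0 without control array 1, control array 2 or Rb-depleted secondary array 1, 2 without either Rb-depleted primary array and 3 without Rb-depleted secondary array 2.

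The partner of miR-322-3p, the abundant guide arm miR-322-5p, had sums over all probes of 751 and 848 on the control arrays, 573 and 479 on the Rb-depleted primary arrays and 406, 726 and 246 on the Rb-depleted secondary arrays. It differed between secondary and control cells by -0.58 (standard error 0.44, adjusted p = 0.389 by limma), which did not pass except without Rb-depleted secondary array 2 (adjusted p = 0.0396 by limma), and its 3 secondary arrays ran from the lowest of all to near the control arrays. The other weaker arms detected on a single array were miR-183-3p (6.26 on Rb-depleted primary array 1), the array on which its guide arm miR-183-5p was highest at 115, miR-300-5p (5.19 on control array 2), miR-30b-3p (4.44 on Rb-depleted secondary array 3) and miR-872-3p (4.51 on control array 1).

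The mir-322 cluster on the X chromosome (mir-322, mir-503, mir-351, mir-542 and mir-450, transcribed together from the minus strand) held 5 of the 54. Of its 11 arms on the array, 3 were detected on all arrays, 5 on some (miR-322-3p, miR-351-5p, miR-450a-2-3p, miR-450b-5p and miR-542-3p) and 3 on none. In NCBIM37 the hairpins of these 5 run from 50401174 (Mir450b) to 50407526 (Mir322). MiR-322 and miR-503 are known for restraining the cell cycle through G1 cyclins and CDC25A. All 8 detected arms had their highest secondary sum on Rb-depleted secondary array 2, as did 27.2% of the 312 miRNAs, and 6 had their lowest sum of all on Rb-depleted secondary array 3 (26.3% of the 312). For 7 of the 8, both control arrays were above both Rb-depleted primary arrays, as were 57.4% of the 312. Detection on some arrays chose 5 of the 8. Among the secondary arrays, miR-450b-5p, miR-351-5p and miR-542-3p were detected on array 2 alone. Counts over the 8 are therefore no test, and nothing is read from them. The 3 arms detected on all arrays (miR-322-5p, miR-450a-5p and miR-503-5p) were not chosen in this way and also had their highest secondary sum on array 2. MiR-503-5p, detected on all arrays, had sums of 84.2 and 81.1 on the control arrays, 61.98 and 61.5 on the Rb-depleted primary arrays and 39.7, 55.2 and 18.01 on the Rb-depleted secondary arrays. MiR-450b-5p, detected only on Rb-depleted secondary array 2 at 4.40, had sums of 10.2 and 12.4 on the control arrays, 7.02 and 6.35 on the Rb-depleted primary arrays and 5.08, 10.97 and 2.37 on the Rb-depleted secondary arrays, so its control sums were about as high as the one that was detected. MiR-351-5p had sums of 9.63 and 8.44 on the control arrays, 6.11 and 3.23 on the Rb-depleted primary arrays and -1.07, 2.26 and 0.0156 on the Rb-depleted secondary arrays. The single cluster transcript means that these arms are not independent of each other.

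**Figure D5:**
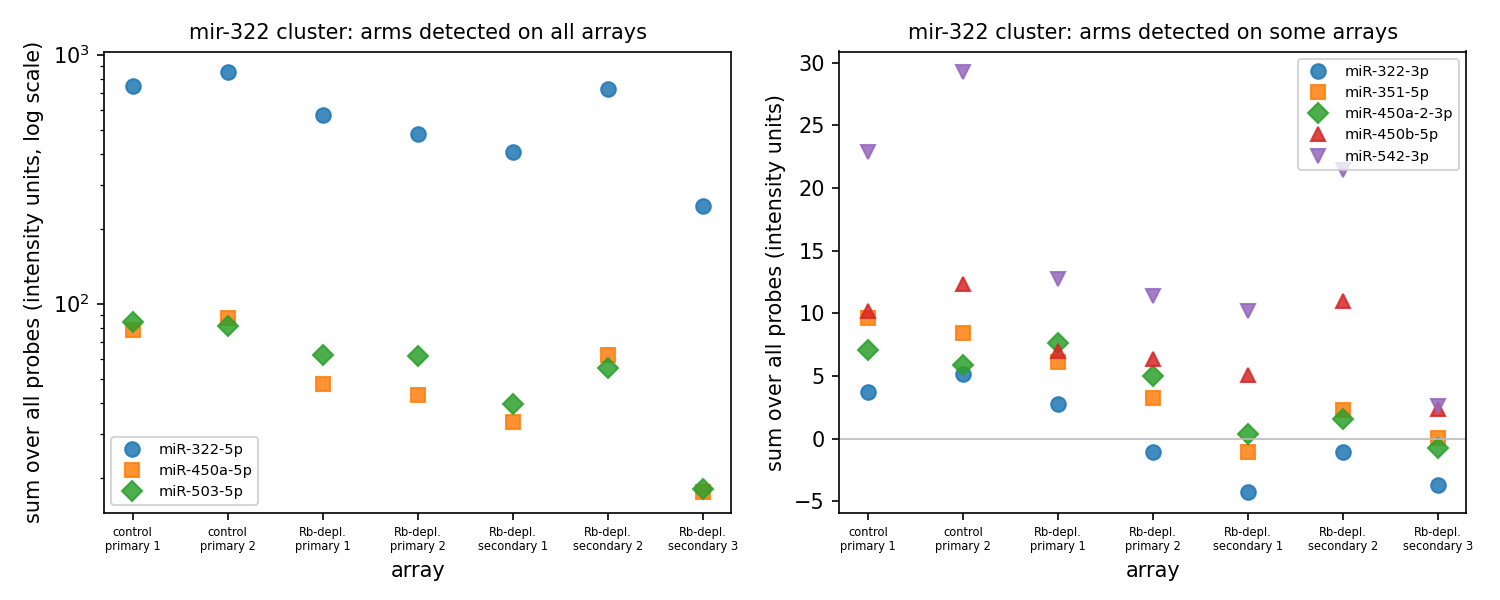
Sum over all probes, in intensity units, of the arms of the X-linked mir-322 cluster on each array; left, 3 arms detected on all arrays (log axis), right, 5 arms detected on some arrays (linear axis, grey line at 0). On both sides Rb-depleted secondary array 2 is the highest of the secondary arrays for every arm.

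The imprinted Dlk1-Dio3 region on chromosome 12 holds a large cluster of miRNAs expressed from the maternal chromosome. The list of its hairpins used here had 65 arms on the array, of which 34 were detected on all arrays, 6 on some and 25 on none. The 6 were miR-134-5p, miR-433-3p, miR-300-5p, miR-376a-5p, miR-496a-3p and miR-539-5p. In 5 of them both control sums were above both Rb-depleted primary sums, against 57.4% of all miRNAs detected. Some of the 6, such as miR-300-5p, were chosen through detection on a control array alone, and arms of one cluster are not independent. The count is therefore no test of the cluster, and nothing is read from it. MiR-134-5p, known from neuronal dendrites, had sums of 15.8 and 20.01 on the control arrays, 8.93 and 5.599 on the Rb-depleted primary arrays and 4.68, 3.34 and 4.3 on the Rb-depleted secondary arrays, and its 3 groups did not overlap. MiR-433-3p had sums of 18.1 and 18.5 on the control arrays, 14.6 and 8.37 on the Rb-depleted primary arrays and 9.17, 7.45 and 12.4 on the Rb-depleted secondary arrays. MiR-496a-3p (9.82) and miR-539-5p (4.89), like miR-300-5p, were detected on control array 2 alone. MiR-770-3p, in an exon of Meg3 in the same region but not on that list, was detected on control array 1 (5.09) and Rb-depleted primary array 2 (7.50).

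The 54 were also set against lists of miRNAs known from particular cell types, which leave out miR-192-5p and miR-134-5p. Of 22 arms of the embryonic stem cell hairpins 2 were detected on some arrays, miR-290-5p and miR-302c-3p (4.81 on Rb-depleted secondary array 3), and 20 on none. Of 7 blood arms miR-451a was detected once (8.81 on Rb-depleted primary array 2) and 6 never. MiR-126-3p was the 1 of 2 endothelial arms detected. Of 12 neural arms 6 were detected on all arrays, 2 on some (miR-138-5p and miR-153-3p) and 4 on none. Of 12 epithelial arms and 2 of liver and endocrine cells none was detected, and of 7 striated muscle arms miR-206-3p was detected on all arrays and the other 6 on none. The mir-183 cluster, of sensory cells, had 3 arms on all arrays and miR-183-3p on 1, and the mir-106a cluster had 1 on all and 3 on none.

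The 20 miRNAs detected on a single array were spread unevenly. Array 3 of the Rb-depleted secondary cells held 7 of them (let-7b-3p, let-7c-1-3p, miR-34b-3p, miR-302c-3p, miR-30b-3p, miR-590-3p and miR-582-5p) and array 1 of the same cells none. Control array 2 held 4 (miR-300-5p, miR-496a-3p, miR-539-5p and miR-711), Rb-depleted primary array 2 another 4 (miR-705, miR-694, miR-451a and miR-878-3p), control array 1 held 2 (miR-2182 and miR-872-3p), Rb-depleted secondary array 2 held 2 (miR-340-3p and miR-450b-5p) and Rb-depleted primary array 1 held 1 (miR-183-3p). The strongest was miR-582-5p, a miRNA from an intron of Pde4d, at 16.4, with sums of 13.04 and 14.6 on the control arrays, 11.9 and 8.53 on the Rb-depleted primary arrays and 14.6, 12.03 and 16.4 on the Rb-depleted secondary arrays. Its sums on arrays without detection were of similar size. MiR-878-3p (7.11), an X-linked miRNA, had sums of 6.27 to 13.9 and was likewise above the background level on all 7 arrays, as was miR-705 (4.28) with 3.14 to 11.03. MiR-2182 (12.6) had sums of 8.96 and 6.37 on the control arrays, 3.58 and -2.02 on the Rb-depleted primary arrays and 0.513, -1.23 and -2.18 on the Rb-depleted secondary arrays, and only control array 1 exceeded the background. MiR-590-3p (4.45) had sums of -2.12 and -2.62 on the control arrays, -2.68 and -3.31 on the Rb-depleted primary arrays and -2.85, -2.38 and 2.71 on the Rb-depleted secondary arrays, at or below the background on every array. MiR-694 reached 10.8 on Rb-depleted primary array 2 through 1 of its 4 probes at 7.07 times its error, the same multiple as the single probe of miR-875-3p on that array. MiR-711 (5.93), within Col7a1, rested on 1 of 4 probes as well.

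The 45 members with a sequence had a median GC content of 45.5% (quartiles 40.9% and 56.5%) and a median length of 22 bases. The median GC content was 45.6% for the fully detected miRNAs and 50% for those detected on no array. Of these, 78.6% and 77.9% had a sequence. The GC values cover only miRNAs with a sequence, and a difference between the sets was not tested. A seed shared with a fully detected miRNA was found for 8 of the 45. These were miR-32-5p, miR-721, miR-130b-3p, let-7b-3p, let-7f-1-3p, miR-181d-5p (with miR-181a-5p and miR-181b-5p), miR-351-5p (with miR-125a-5p and miR-125b-5p) and miR-7b-5p (with miR-7a-5p). In the deposited values, secondary cells differed from control cells by 0.45 (standard error 0.09, adjusted p = 0.0246 by limma) in miR-130a-3p and by 0.39 (standard error 0.09, adjusted p = 0.0368 by limma) in miR-301a-3p, relatives of miR-721 and miR-130b-3p, but without normalization between arrays both differences turned to -0.05 and -0.09. The difference was 0.60 (standard error 0.14, adjusted p = 0.0335 by limma) for let-7a-1-3p, which carries the seed of both let-7 star arms, and -0.03 without normalization. For miR-181a-5p it was 0.88 (standard error 0.09, adjusted p = 0.0064 by limma), and 0.10 without normalization, where it did not pass. For miR-125a-5p, the relative of miR-351-5p, it was 0.29 (standard error 0.07, adjusted p = 0.0402 by limma), and -0.24 without normalization. The relatives miR-181b-5p at -0.01 (standard error 0.13, adjusted p = 0.96 by limma), miR-125b-5p at 0.21 (standard error 0.13, adjusted p = 0.299 by limma) and miR-7a-5p at -0.14 (standard error 0.08, adjusted p = 0.258 by limma) did not pass, though miR-181b-5p at -0.65 and miR-7a-5p at -0.38 did without normalization.

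These calls were easily lost. Of 12 alternative settings, miR-125a-5p stayed past 0.05 with the same direction in 1, miR-301a-3p in 2, let-7a-1-3p in 3, miR-130a-3p in 4 and miR-181a-5p in 8. Scaling to the 75th percentile and the replicate block each ended the call for all 5, the slide as a term for all but miR-181a-5p, and trend and robust moderation for let-7a-1-3p and miR-125a-5p. Leaving out control array 1 ended the call for all 5, and leaving out control array 2 or Rb-depleted secondary array 1 ended it for all but miR-181a-5p. It was also lost for miR-130a-3p, miR-301a-3p and miR-125a-5p without Rb-depleted secondary array 3, for miR-301a-3p and miR-125a-5p without either Rb-depleted primary array, and for let-7a-1-3p without Rb-depleted secondary array 2.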

How the data were processed

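Total RNA (100 ng a sample) was labelled with Cy3 and hybridized to 1-colour Agilent mouse miRNA arrays, 7 in all. The intensity values deposited for each array came from Agilent Feature Extraction (version 10.7.3.1 in the submitters' processing notes, 11.0.1.1 in the file headers) and are background-subtracted and not normalized between arrays. The deposited log2 values cover 252 miRNAs, which the authors quantile normalized in GeneSpring. Signal near the limit sets the precision, together with the small number of arrays.

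The 54 miRNAs and the lists were chosen with earlier results of these data known. Every member was named. Values on every array were given for members whose detection separated groups, that had an adjusted p under 0.05 on total signal, that had the 3 highest or 3 lowest median signals, or that were star or weaker arms of a called partner. Any other miRNA was chosen after its values were seen.

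Total signals of all 718 features on the array were floored at 1, taken to log2 and quantile normalized together, and the 312 mouse miRNAs detected on any array were fitted. Sums over all probes were floored at 1 too, after scaling. Groups were compared with limma 3.58.1 in R 4.3.3, with all 7 arrays in one fit and Benjamini-Hochberg adjustment over all miRNAs tested. P-values set a difference between group means against the spread between these arrays, which may be partly technical. Partner arms were tested in the same way on the deposited log2 values. Other floors, normalizations, feature sets, a slide term, replicate blocks, moderation settings and leaving out each array were tried. On 20 simulated data sets the member fit found 85.9% of the changed miRNAs among 312, with 3.49% false calls, and the partner fit 86.4% among 252, with 4.68%. These rates hold for those sets alone. The share of changed miRNAs that either fit finds on the 7 arrays was not tested. In the member fit, undetected arrays stand at the floor. Tables were made in Python 3.11.15 with pandas 2.3.3 and numpy 2.4.6. Hairpin positions are from the NCBIM37 annotation, the build of the array, and mature sequences from RefSeq.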

Additional observations from a re-analysis of the deposited data

Results flagged for a closer look

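Of the 14 partner arms, 3 were called by limma for the difference between the Rb-depleted groups, against 20.2% of all 252 miRNAs. The count is near that share, so nothing is read from it. The log2 difference of Rb-depleted secondary from Rb-depleted primary cells was 0.66 for miR-340-5p, 0.71 for miR-34b-5p and 0.68 for miR-376a-3p, and each lost its call with the slide as a term.

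Among the 54, miR-32-5p and miR-421-3p stood out because, with undetected arrays at the value written for them, both Rb-depleted primary arrays lay on one side of the control arrays and all secondary arrays on the other. MiR-32-5p was detected on neither Rb-depleted primary array, and its median total gene signal where detected in Rb-depleted secondary cells was 17.4. For miR-421-3p, not detected on Rb-depleted secondary array 1, that median was 8.24, and its sums over all probes overlapped between control and Rb-depleted primary arrays. That the 2 effects differ was not tested for either.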

How the results depend on the processing

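The number of miRNAs detected on some arrays was 54, and 45 to 53 when each array was left out in turn. The number of undetected values below the limit of the array, 32, became 108 with the 5th percentile of the detected signals as the limit, and 17 to 30 with an array left out, of which 21 without control array 2, 19 without Rb-depleted secondary array 1 and 17 without Rb-depleted secondary array 3. For Rb-depleted primary against control cells the 4 members under 0.05 on total signal became 2 with 75th percentile scaling, 2 without normalization, 1 with trend and robust moderation and 0 with the slide term, with the replicate block and with either sum over all probes, and 0 to 12 with an array left out. For secondary against control cells the 9 became 23 with unnormalized sums over all probes, where 126 of all 312 miRNAs were called. They became 7 to 10 with an array left out. For secondary against Rb-depleted primary cells the 6 became 11 with the slide term, 12 with scaled sums (12.2% of all miRNAs) and 6 to 10 with an array left out. Without normalization the partner arms called were 2, 4 and 1 in the 3 comparisons, in place of 0, 1 and 3. With the replicate block and with the slide term they were 0, 0 and 0, and with an array left out 0 to 2, 0 to 3 and 0 to 4. For the other settings no share over all miRNAs is given, so nothing is read about the members or partner arms from these counts. Same-numbered arrays correlated between -0.14 and 0.13 in their deviations from the group means, so the replicate block pairs arrays by number only. Of the alternative values for single named miRNAs, 340 stayed on their side of the threshold, 3 gained a call (miR-322-5p, miR-181b-5p and miR-7a-5p), 4 reversed and all others lost their call with the same direction. The 4 that reversed were secondary against control cells without normalization, at -0.0462 for miR-130a-3p, -0.0882 for miR-301a-3p, -0.0325 for let-7a-1-3p and -0.24 for miR-125a-5p. The causes of these changes were not tested.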
